A study of Mus musculus with 2 samples.

Results

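AP-1 is a family of dimeric transcription factors built from basic leucine zipper (bZIP) proteins of the Jun, Fos, Atf, Maf and Batf groups. The genes described here are 10 of these subunits: Jun, Junb, Jund, Fos, Fosb, Fosl1, Fosl2, Atf3, Maff and Batf. They were found by symbol among the probe sets that name exactly 1 gene in the platform annotation, which cover 19938 genes. Each of the 10 had 1 such probe set, and all 10 symbols were the same in the RefSeq gene table.

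The samples were liver cancers (hepatocellular carcinoma) induced in mice with DEN, the carcinogen diethylnitrosamine. A single array held RNA of a wild-type tumour and a single array RNA of an HLF-deficient tumour; DEN was the inducing agent in both groups. HLF, hepatic leukemia factor, is a bZIP transcription factor of the PAR group. The sources used here give no age, sex, strain or DEN dose, do not say in which cells Hlf was inactivated, and do not say whether a sample was 1 tumour or a pool. Expression was measured on Affymetrix arrays, and each value is a log2 expression level made with RMA. With 1 array per genotype there is no p-value, SD or interval between tumours, the number of arrays limits the precision, and every difference is between these 2 samples.

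AP-1 dimers bind short palindromic DNA elements and switch on genes of proliferation, inflammation, tissue remodelling and stress. Jun proteins can pair with each other or with a Fos or Atf partner, whereas Fos proteins need a partner from another group. Several subunit genes are immediate early genes: their transcription starts within minutes of a growth factor, cytokine or stress signal, through MAP kinases that act on factors already bound at their promoters. In liver, c-Jun is known for its part in hepatocyte proliferation during regeneration and in the early stages of DEN-induced tumours.

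Promoter letters are shown for the 4 subunits that were higher by 2-fold or more and for Batf. Batf was not higher by 2-fold but holds TGACGT, as do Fos, Atf3 and Maff. Junb, Jund, Fosb and Fosl2, not higher by 2-fold either, hold none of the elements marked below in the windows searched. Sequences are the last 120 bases before a RefSeq transcription start in build GRCm38.p6, read 5′ to 3′ on the gene's strand. Capitals mark TGACATCA, or TGACGT on either strand with the rest of TGACGTCA where it is present; TGACGTCA is the cyclic AMP response element, to which ATF and CREB proteins bind, and TGACATCA is the Jun promoter's variant of an AP-1 element.
Jun (chr4:95052223-95052342, minus strand): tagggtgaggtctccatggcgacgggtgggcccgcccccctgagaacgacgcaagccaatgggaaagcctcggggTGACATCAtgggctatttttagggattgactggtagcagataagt
Fos (chr12:85473770-85473889, plus strand): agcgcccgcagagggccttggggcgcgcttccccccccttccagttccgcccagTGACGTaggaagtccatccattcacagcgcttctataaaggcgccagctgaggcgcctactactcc
Atf3 (chr1:191183334-191183453, minus strand): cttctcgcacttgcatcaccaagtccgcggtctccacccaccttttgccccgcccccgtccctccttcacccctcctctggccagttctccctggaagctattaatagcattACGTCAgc
Maff, the second of 3 starts (chr15:79347400-79347519, plus strand): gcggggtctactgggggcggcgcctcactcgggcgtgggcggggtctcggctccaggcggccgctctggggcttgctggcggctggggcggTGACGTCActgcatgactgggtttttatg
Batf (chr12:85686600-85686719, plus strand): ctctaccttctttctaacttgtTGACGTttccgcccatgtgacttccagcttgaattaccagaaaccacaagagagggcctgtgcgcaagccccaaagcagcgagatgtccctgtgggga

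The RefSeq promoter table matched 9 of the 10 subunits with 11 starts, 3 of them for Maff; Fosl1 had no entry. Over the 250 bases before each start, on both strands, TGACATCA was found before Jun, from 45 to 38 bases upstream, and before the third Maff start at the same distance. The letters TGACGT were found before Fos, from 66 to 61 bases upstream, before Atf3, from 8 to 3, before the second Maff start and before Batf, from 98 to 93. At the second Maff start they lie inside TGACGTCA, from 29 to 22 bases upstream. Of all 32851 promoters of the same length, 2.93% hold TGACATCA, 6.47% hold TGACGT, 1.55% hold TGACGTCA and 9.27% hold TGACGT or TGACATCA. These letters were chosen with the sequences in view, and Maff has 3 windows in which to hold them. Neither the AP-1 element TGANTCA, present in 6.75% of all promoters, nor TTANGTAA, a core of the PAR bZIP site that HLF binds, present in 2.06%, was found in any of the 11 windows. The CArG box of serum response factor, present in 1.47%, was not found there either. Sites farther upstream than 250 bases were not searched, so absence from these windows does not mean that a gene lacks the element. TATAAA was sought on the gene's strand only, where 7.59% of all promoters hold it. It was found before Fos, 33 to 28 bases upstream, and in no other of the 11 windows. A match is a description of letters, and the arrays do not show which Maff start was used.

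The targeted gene, Hlf, measured 5.13 (log2) in the wild-type sample and 3.79 in the HLF-deficient one. The difference of -1.34 has the direction of the genotype labels; which exons were deleted, and whether the probe set reads them, is not given here, so the remaining signal cannot be interpreted. Its relatives Dbp and Tef and the related repressor Nfil3 differed by 0.33, 0.06 and 0.13. Hepatocyte genes were bright on both arrays, with Alb, serum albumin, at 12.55 and 12.41. The floor of expression was a log2 value of 2.98, the 95th percentile of 1248 probe sets for chemoreceptors (odorant, vomeronasal and taste), which liver is not known to use. At or above it on at least 1 array were 14575 genes, and all 10 subunits were above it on both arrays.

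Of the 10 subunits, Jun, Fos, Atf3 and Maff were higher by 2-fold or more in the tumour without HLF, and 0 were lower by 2-fold. Of all 14575 genes, 1.5% were higher and 0.364% lower by this rule. At 1.5-fold, Junb joined the 4 higher subunits and 0 were lower, beside 6.37% of all genes higher and 3.11% lower; Junb was under 1.5-fold after quantile normalization (0.47) and loess (0.43). At 4-fold, Fos and Atf3 were higher and 0 were lower, beside 0.185% and 0.0617% of all genes; Atf3 was under 4-fold after quantile normalization (1.85) and loess (1.79). The other 6 subunits had differences between -0.21 and 0.64. The median difference of the 10 was 0.41, beside 0.07 for all genes; 8 of 10 values were above 0; centring made it 9, and quantile normalization or loess 7. Between the lowest of the 4, Maff at 1.43, and the highest of the 6, Junb at 0.64, no subunit was found.

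**Figure D1:**
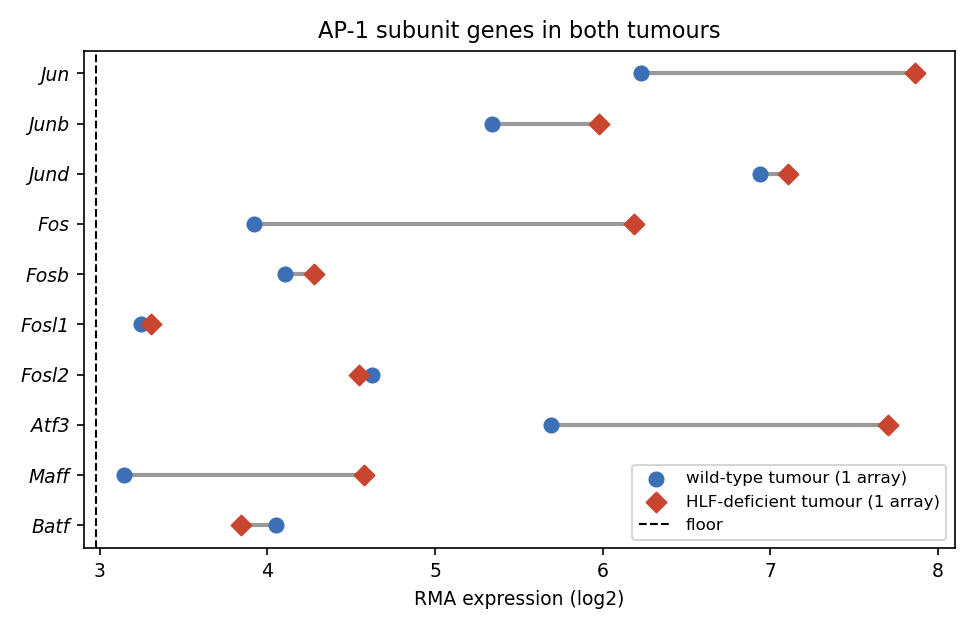
RMA expression (log2) of the 10 AP-1 subunit genes in the wild-type tumour (circles) and the HLF-deficient tumour (diamonds), 1 array each, with the floor of 2.98 as a dashed line. The gray lines join the values of a gene; those of Jun, Fos, Atf3 and Maff span 1.63, 2.27, 2.01 and 1.43, and levels of different probe sets are not comparable with each other.

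Jun, Junb and Jund encode the Jun proteins, each of which can form AP-1 dimers by itself. Jun, which encodes c-Jun, was at 6.23 in the wild-type sample and at 7.86 in the HLF-deficient one. The second value was higher by 1.63, or 3.10-fold. The study's paper proposes Jun as a target of HLF, and on these arrays Jun was the higher in the sample without HLF. The cells and measures behind that proposal are not given here, so this pair of RNA values does not test it. Junb, whose product is a weaker activator than c-Jun and can oppose it, went from 5.34 to 5.98, a difference of 0.64 or 1.55-fold. Jund, the member of the group that most resting cells already express, was at 6.94 and 7.10, a difference of 0.16. The Jund difference was -0.01 after quantile normalization and -0.04 after removal of the trend with level, so it has no direction that holds. Of all genes, 0.364% had a larger difference than Jun, 5.18% a larger one than Junb and 39.5% a larger one than Jund.

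The Fos group, which binds DNA only together with a partner such as a Jun protein, was split further apart. Fos, encoding c-Fos, was at 3.92 in the wild-type sample and at 6.19 in the HLF-deficient one. This difference of 2.27, or 4.82-fold, was the largest of the 10 subunits and the 13th largest increase among the 14575 genes. Fosb, another immediate early member, was at 4.10 and 4.28, a difference of 0.18. The wild-type values of Fos and Fosb lay 0.94 and 1.12 above the floor, and RMA compresses differences near background. Fosl1, which encodes Fra-1 and is known as a gene that AP-1 itself activates, was at 3.25 and 3.31, only 0.27 and 0.33 above the floor. Fosl2, which encodes Fra-2, was at 4.62 and 4.55, a difference of -0.07 that became 0.05 with each array centred on its median. Fos was thus alone in its group in standing beyond 2-fold, by 2.09 more than Fosb, by 2.21 more than Fosl1 and by 2.34 more than Fosl2.

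Atf3, a stress-induced bZIP factor that pairs with Jun proteins and acts as repressor or activator depending on the partner, was at 5.69 in the wild-type sample and at 7.70 in the HLF-deficient one. The difference was 2.01, or 4.03-fold, the 27th largest increase among the 14575 genes. Maff, a small Maf protein without an activation domain of its own, was at 3.14 and 4.58, a difference of 1.43 or 2.70-fold. Its wild-type value lay only 0.16 above the floor. With the floor at the 99th percentile of the receptor probe sets, 3.78, the wild-type value is below it and the change is bounded as at least 1.73-fold. Batf, a partner of Jun proteins known from lymphocytes and dendritic cells, was at 4.05 and 3.84, a difference of -0.21.

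As a guide to technical spread within the array pair, pairs of probe sets of the same gene, the brightest and the next, were set against each other for 696 genes that had both above the floor. Their differences diverged with an SD of 0.32, which gives 0.23 for a single probe set and covers neither mice nor tumours. Each subunit had 1 probe set, so none could be checked by a second one. In the order of differences, Fos lay 0.26 above Atf3 and Jun lay 0.20 above Maff, both less than the SD of 0.32, so neither pair is ordered. Atf3 lay 0.38 above Jun, little more than the SD of 0.32, which gives no firm order for that pair either. The step from Maff to Junb was 0.80 and that from Junb to Fosb 0.46, while Fosb, Jund, Fosl1, Fosl2 and Batf followed within 0.38 of each other.

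**Figure D2:**
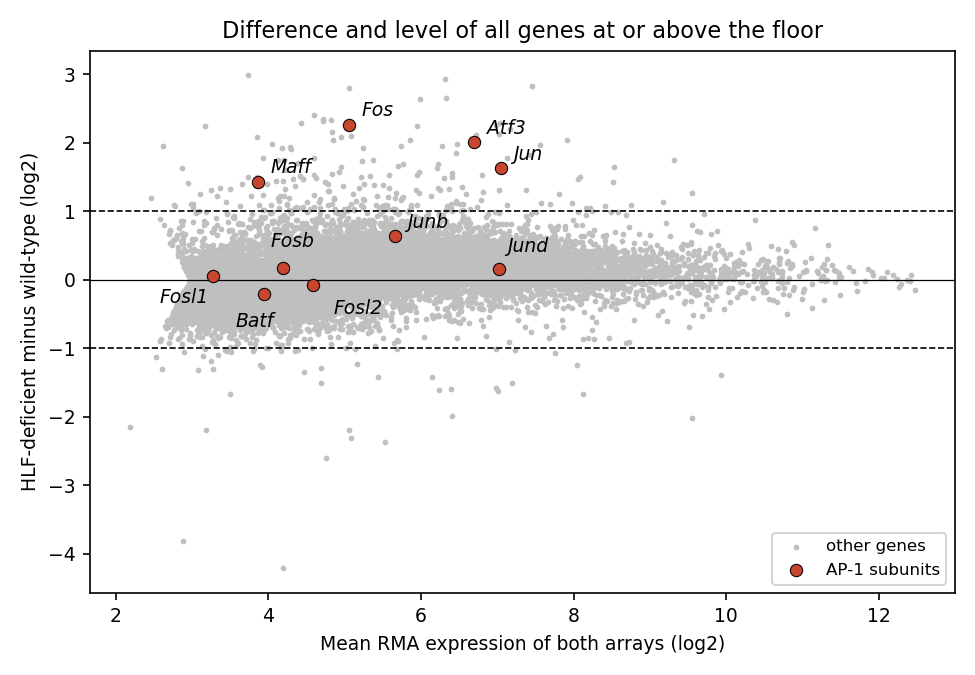
Difference between the tumours (HLF-deficient minus wild-type, log2) against the mean RMA expression of both arrays (log2) for 14575 genes, with the 10 AP-1 subunits as labelled points and 2-fold as dashed lines. Fos, Atf3, Jun and Maff lie above the upper line, and the other 6 lie inside the cloud between -0.21 and 0.64.

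The 4 scalings of the arrays left the same 4 subunits beyond 2-fold. Centring each array on its median adds 0.12 to every difference, and loess takes out the trend of the difference with level. Over the values as deposited and these 3 scalings, Jun lay between 1.43 and 1.76, Fos between 2.14 and 2.39, Atf3 between 1.79 and 2.13 and Maff between 1.43 and 1.55. Junb lay between 0.43 and 0.76 and stayed under 2-fold in each.

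**Figure D3:**
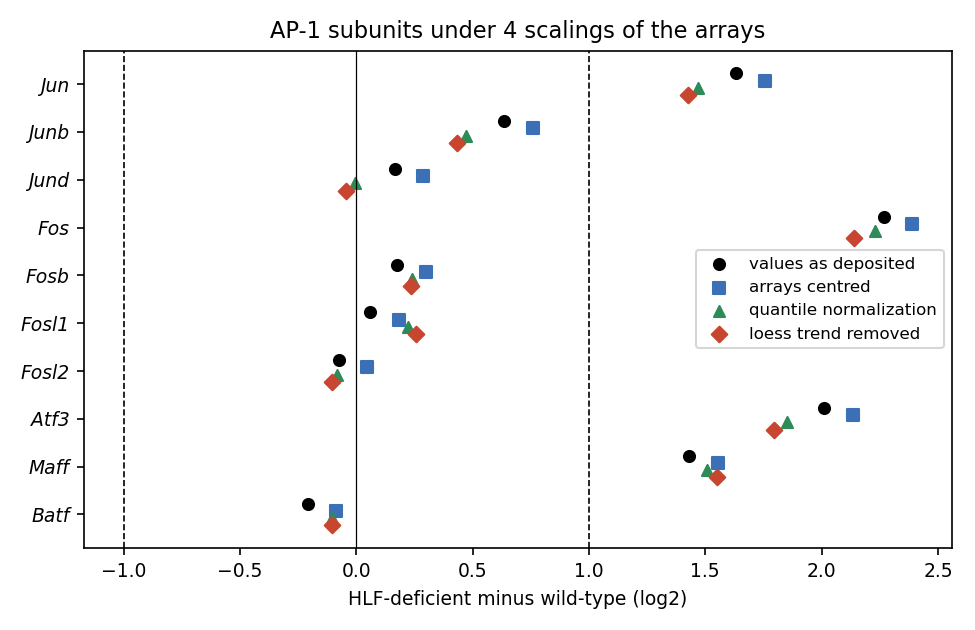
Difference between the tumours (HLF-deficient minus wild-type, log2) of each AP-1 subunit with the values as deposited, with each array centred on its median, after quantile normalization and after removal of a loess trend. Jun, Fos, Atf3 and Maff stay to the right of the 2-fold line (dashed, at 1) in all 4, and the points of Jund and Fosl2 fall on both sides of 0.

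Genes beside the 4 higher subunits on their chromosomes were examined next. The nearest expressed genes, up to 2 on each side in the RefSeq gene order and no subunits themselves, numbered 15. Of these 0 were beyond 2-fold, with a median of 0.15. Over all 14575 genes 1.5% were higher and 0.364% lower by this rule, so 0 of 15 is near that share. Fos, Jdp2 and Batf are consecutive expressed genes on chromosome 12 and all encode bZIP proteins. Fos differed by 2.27, Jdp2, a repressor that pairs with Jun proteins, by -0.13 with levels of 4.44 and 4.30, and Batf by -0.21. Atf3 has its relative Batf3 as second neighbour on chromosome 1, and Batf3 differed by -0.21. The lowest value of the 15 was -0.82, for Baiap2l2 near Maff on chromosome 15. The 5 genes whose difference was nearest to that of Jun, among genes above the floor on both arrays, were Afp, Inhbb, Cyp7b1, Mcam and Mfsd2a, each within 0.04 of it; with 2 arrays this likeness is over 1 difference only.

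Other bZIP factors that pair with AP-1 subunits or share their sites stayed within 2-fold. Of 17 on the list, 16 were measured, 0 passed 2-fold in either direction, and the median was 0.19. Of all 14575 genes only 1.5% were higher and 0.364% lower by this rule, so 0 of 16 is near that share. The highest were Nfe2l2, which encodes the oxidative stress factor NRF2, at 0.48, its relative Nfe2l1 at 0.36 and Crem, a cyclic AMP responsive factor, at 0.36. The small Maf genes Mafk and Mafg, the closest relatives of Maff, differed by 0.32 and 0.31. The lowest were Batf2 at -0.23, Batf3 at -0.21 and Jdp2 at -0.13. The median was 0.01 after quantile normalization and -0.01 after loess, so the list has no direction.

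The kinases that signal to AP-1 also stayed within 2-fold with the values as deposited. Of 19 listed, 14 were above the floor, and their median was 0.22. By the 2-fold rule 1.5% of all 14575 genes were higher and 0.364% lower, so 0 of 14 is near that share. The JNK genes Mapk8 and Mapk9, whose products phosphorylate c-Jun, differed by 0.05 and 0.34, and Map2k4, the gene of a kinase that activates them, differed by 0.31. Map3k1, which lies upstream of JNK, had the largest value, with levels of 5.46 and 6.40. Its difference of 0.94 became 1.06, beyond 2-fold, with the arrays centred. Next were Rps6ka3, an ERK-activated kinase, at 0.68 and Map3k5, a stress-activated kinase, at 0.41. Mapk7, the gene of ERK5, was level at 4.37 on both arrays. The list median was 0.06 after quantile normalization and 0.03 after loess. These are transcript levels and say nothing of kinase activity.

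Factors known at the Fos and Jun promoters had a median of 0.39, with 10 of 12 above 0 (9 after loess) and 0 beyond 2-fold. That 0 of 12 is near the share of all 14575 genes, 1.5% higher and 0.364% lower. Mef2a, a MADS box factor, was at 0.57, the coactivator gene Ep300 at 0.56 and the CREB coactivator gene Crtc2 at 0.52. Srf, serum response factor, was at 0.34, and Mrtfb, a cofactor gene, was lowest at -0.09 while the related Mrtfa was level at 4.49 on both arrays. The median was 0.25 after quantile normalization and 0.21 after loess.

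Among genes that act on AP-1 protein or mRNA turnover, 1 of 11 was higher by 2-fold, beside 1.5% of all 14575 genes. None was lower, and the median was 0.40. The higher gene was Zfp36, whose product tristetraprolin binds AU-rich elements and speeds the decay of mRNAs such as that of Fos. Zfp36 is itself an immediate early gene. Its levels were 5.56 and 7.04, a difference of 1.48 or 2.79-fold. Its relative Zfp36l2 was at 0.98 and Trib1, an adaptor of the COP1 ubiquitin ligase, at 0.96, and both passed 2-fold with the arrays centred, at 1.10 and 1.08. The ligase genes Cop1, Fbxw7 and Itch differed by 0.46, 0.40 and 0.10. The lowest value was that of Hnrnpd, another AU-rich element binder, at -0.12.

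Genes known as AP-1 targets were divided. Of 32 listed, 29 were measured, 25 were above the floor, 7 were higher by 2-fold and 0 were lower. Thus 28% of the 25 were higher by 2-fold, beside 1.5% of all 14575 genes, and the median was 0.40. The highest was Vim, the mesenchymal filament vimentin, with levels of 6.89 and 8.94. Mmp12, the macrophage elastase, followed with 5.29 and 7.25, and Il1b, the inflammatory cytokine interleukin-1 beta, with 3.53 and 5.24. Mmp13, a collagenase, was at 3.10 and 4.61, and its wild-type value lay only 0.13 above the floor. Bcl2l11, which encodes the pro-apoptotic protein BIM, was at 4.47 and 5.97, and Hmox1, heme oxygenase, at 5.70 and 7.03.

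Plau, the urokinase gene, did not reach the floor in the wild-type sample and was at 4.16 in the HLF-deficient one, which is at least 2.27-fold higher. The 7 differences therefore ran from Vim at 2.04 to Plau at 1.32, the latter uncorrected for the floor. The wild-type values of Mmp13, Il1b and Plau (3.10, 3.53 and 2.84) lie below the stricter floor of 3.78. Under that floor their changes have only lower bounds, and the count of 7 uses their uncorrected differences. The same list held genes that did not go with them. Ccnd1, the cyclin D1 gene through which AP-1 is known to act on the cell cycle, was level at 7.43 and 7.36. Mmp9, Mmp10 and Ezr had the lowest values, -0.28, -0.20 and -0.20. The cytokine genes Il6 and Tnf were below the floor on both arrays, as were Fasl and Mmp3.

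Immediate early genes that encode no AP-1 subunit were divided as well. Of 20 listed, 19 were above the floor, with a median of 0.80. By 2-fold, 9 were higher (7 after quantile normalization, 6 after loess), beside 1.5% of all 14575 genes. The other 10 lay within 2-fold and 0 were lower. Nr4a1, an orphan nuclear receptor, was at 3.54 and 5.88, Btg2, an anti-proliferative gene, at 5.48 and 7.45, and Dusp1, a phosphatase that switches off JNK and p38, at 6.24 and 8.02. Egr1, a zinc finger factor induced through SRF, was at 6.03 and 7.56 and Ier3 at 3.72 and 5.19. Klf10, Ier2, Klf6 and Ccn1 followed at 1.22, 1.16, 1.10 and 1.02. Klf6 and Ccn1 were under 2-fold after quantile and loess normalization, and Ier2 was just under it after loess. Klf2, a gene of flow-exposed endothelium, was lowest at -0.24, and Egr2, Arc and Klf4 were level at -0.05, -0.04 and -0.01. As among the AP-1 subunits, close relatives diverged: Egr1 differed by 1.53 and Egr3 by 0.16, and Nr4a1 by 2.34 and Nr4a2 by 0.54. Nr4a2, at 3.24 and 3.78, lay only 0.27 above the floor in the wild-type sample, near background where RMA compresses differences.

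**Figure D4:**
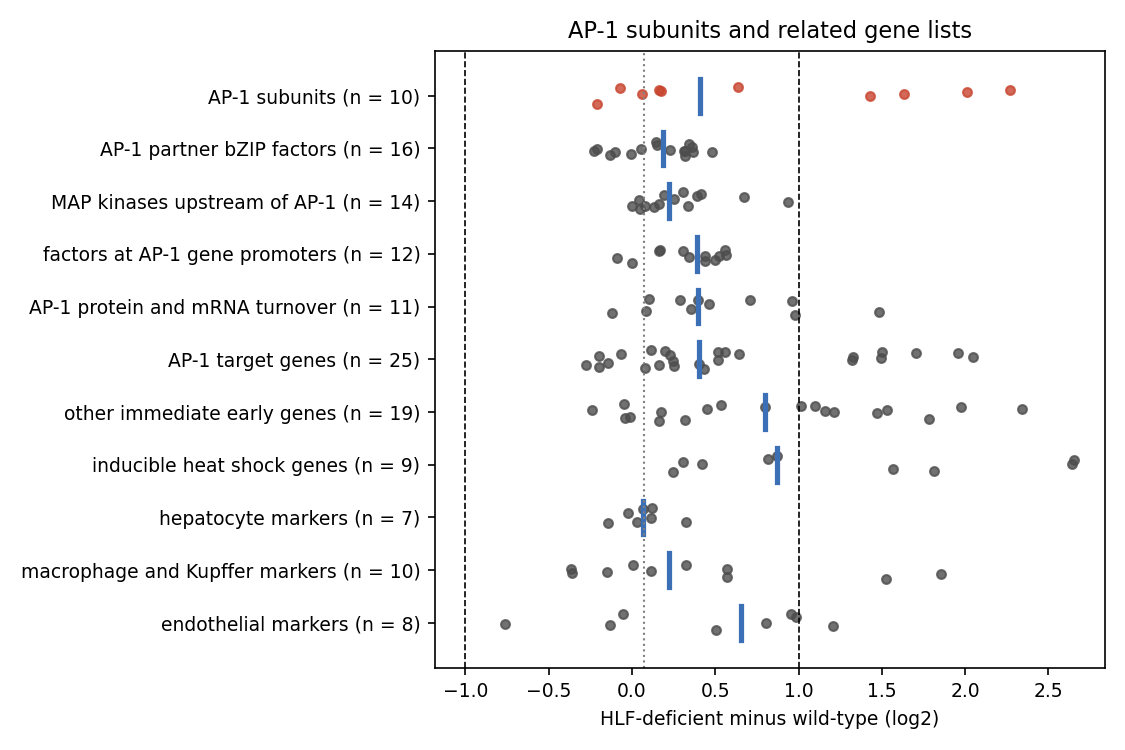
Difference between the tumours (HLF-deficient minus wild-type, log2) for each gene at or above the floor in 11 gene lists, 1 point per gene, with the list median as a thick bar, 2-fold as dashed lines and the median of all genes, 0.07, as a dotted line. The AP-1 subunits fall into 4 points beyond 2-fold and 6 within it, and points beyond the upper line are also seen among targets, other immediate early genes and heat shock genes; vertical scatter within a list has no meaning.

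Of the inducible heat shock genes, which respond to heat and proteotoxic stress, 4 of 9 measured were higher by 2-fold in the same tumour and 5 lay within 2-fold. The share of all 14575 genes higher by this rule was 1.5%. All 9 differences were above 0, with a median of 0.87. Hspa1a, which is nearly identical to Hspa1b so that a probe set may read both, reached 7.66 in the HLF-deficient sample, a difference of 2.66. Hspb1 was at 4.66 and 7.31, Hsph1 at 6.52 and 8.34 and Dnajb1 at 5.62 and 7.18. The mitochondrial chaperone genes Hspe1 and Hspd1 were lowest, at 0.30 and 0.25. Their part in the AP-1 differences was not tested.

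Some markers of other cells moved with the AP-1 subunits too, and in bulk tissue more cells of a type and more RNA per cell cannot be told apart. For scale, 1.5% of all 14575 genes were higher by 2-fold. Of 10 macrophage and Kupffer cell markers, Cd14 and Cd68 were higher by 2-fold, at 1.86 and 1.53, while Clec4f and Vsig4, both genes of resident Kupffer cells, differed by -0.37 and -0.36; the mean level of the 10 was 5.75 and 6.16. Of 8 endothelial markers, Lyve1 was higher by 2-fold, at 1.21, Emcn and Cdh5 were at 0.98 and 0.95 (beyond 2-fold with the arrays centred), and Clec4g was lowest at -0.76; their mean level was 6.11 and 6.55. Of 8 stellate cell and fibroblast markers 0 passed 2-fold, all were above 0 as deposited (7 after quantile or loess normalization) and Col1a2 was highest at 0.76; their mean level was 5.47 and 5.90. The 7 hepatocyte markers lay between -0.15 and 0.32. Markers of T and NK cells, B and plasma cells, neutrophils, dendritic cells and cholangiocytes had 0 genes beyond 2-fold, with medians between -0.16 and 0.06 over the 4 scalings. Below the floor on both arrays were Cd3d, Klrb1c and Gzma of the T and NK cell list, Cd79a and Ms4a1 of the B cell list, Cxcr2 and Mmp8 of the neutrophil list and Xcr1 and Clec9a of the dendritic cell list. The part of these cells in the AP-1 differences was not tested.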

How the data were processed

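Per the submitters' processing notes, RMA and Affymetrix Expression Console gave the deposited values; the set of arrays normalized together is unknown here. The log2 scale of the deposited table of 35556 probe sets was read from its values (0.25 to 12.7) and from RMA's usual output. RMA compresses differences near background. Trizol-extracted total RNA was labelled with biotin, per the labels' protocols. Probe sets naming exactly 1 gene (21789) were used; a gene with several took the one with the highest mean. Promoters came from RefSeq GRCm38.p6. Levels of different probe sets were not compared.

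The difference is HLF-deficient minus wild-type, and a rule of 2-fold takes the place of a test. Of 201 list genes, 13 had no probe set naming them alone, and 4 were found by synonym. All 10 subunits and Hlf were named, and from each list the genes beyond 2-fold and up to 3 extremes in each direction. The genes and lists were chosen with earlier results of these data known. Alternatives were other scalings, the mean of probe sets, other floors and rules of 1.5-fold and 4-fold; the loess span was 0.4 (statsmodels 0.14.6). The scripts were tested on simulated data.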

Additional observations from a re-analysis of the deposited data

How the results depend on the processing

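Differences of the 10 subunits kept their side of 2-fold under each scaling tried. The other floors and the mean of probe sets could not change them, because each subunit had 1 probe set and the floor does not enter a difference. Under the 99th percentile floor Fosl1 is lost and Maff has only its bound of 1.73-fold. Of the 14575 genes, 929 were higher and 454 lower at 1.5-fold, and 27 and 9 at 4-fold; with the arrays centred 32 were lower by 2-fold. At 4-fold, 2 subunits (Fos, and Atf3 except after quantile normalization or loess) were higher, 1 AP-1 target, 1 other immediate early gene, 2 heat shock genes and 0 turnover genes. At 1.5-fold, 4 turnover genes and 2 kinases were higher; with the arrays centred, 3 and 1 were higher by 2-fold. With the 99th percentile floor, which drops genes, the median was 0.64 for the subunits and 1.06 for the other immediate early genes. No paired analysis was possible because each genotype has 1 array. No value had a replicate check, and Maff and Fosl1 are limited by their closeness to background. The wild-type value of Fos, 3.92, lay little above the 99th percentile floor of 3.78.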
